A study of Bos taurus with 96 samples.

Results

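The somatotropic axis was followed through 3 of the 24616 genes counted in these samples. They were insulin-like growth factor I (IGF-I, ENSBTAG00000011082), its binding protein IGFBP1 (ENSBTAG00000046768) and suppressor of cytokine signalling 2 (SOCS2, ENSBTAG00000012007), chosen by identifier and not by their values, and all 3 had counts in both tissues. Liver was sampled by puncture biopsy and muscle from the semitendinosus in 16 Holstein dairy cows of first and second parity kept in a single herd. The cows were alike in their merit for milk production, while 8 carried good (Fert+) and 8 poor (Fert-) genetic merit for fertility, and no untreated or other control group was part of the design. Each cow was sampled in late pregnancy (LP), in early lactation on about the day after calving (EL) and in mid lactation, in the fifth month (ML), which gave 96 libraries, 48 per tissue.

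Growth hormone from the pituitary binds its receptor on hepatocytes and acts through JAK2 and STAT5 to drive transcription of IGF-I, which in turn restrains the pituitary. Around calving, high-yielding dairy cows are known to enter negative energy balance with high growth hormone and low circulating IGF-I, a state called uncoupling of the axis. IGFBP1 is a liver-secreted binding protein whose gene is restrained by insulin and induced by fasting. SOCS2 is induced by growth hormone itself and damps signalling of its receptor.

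Read pairs assigned to genes ran from 14966847 to 26358063 per library in liver and from 15279337 to 22018740 in muscle. Levels are given as CPM (counts scaled to library size with TMM factors), which take no account of gene length, so that a level is compared between samples and never between genes. All 8 hepatocyte markers were counted in liver, where their summed level lay between 30879 and 216799 CPM, and all 8 skeletal muscle markers in muscle (18299 to 261411 CPM), while muscle markers summed to at most 0.47 CPM in liver. The hepatocyte sum in liver had a median of 140997 CPM at LP, 87479 CPM at EL and 127643 CPM at ML. Markers of neutrophils summed to at most 19.4 CPM in liver at LP and ML and to 283, 102 and 96.9 CPM at EL in cows 164, 3847 and 982. The skeletal muscle sum in muscle had medians of 193658, 59772 and 215723 CPM at LP, EL and ML. In these bulk biopsies fewer cells of a type and less RNA per cell cannot be told apart. In a set of 19 genes that were nearly uncounted in most libraries, 13 libraries (called batch B here, since the labels name no batch) counted 11 to 17 of them and the other 83 counted at most 3. Batch B held 8 liver libraries of 6 cows and 5 muscle libraries of 2 cows.

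The liver libraries of cows 426, 3434 and 996 stood apart. For each cow the change in log2(CPM + 1) from LP to EL over all genes tested was set against the mean change of the other 15 cows. In liver this correlation over genes was -0.60 for Fert- cow 426 and lay between -0.25 and 0.62 (median 0.30) for the other 15 cows, 14 of which were above 0. The other cow below 0 was Fert+ cow 3434, at -0.25, which had 0.23 for ML against EL and 0.45 for ML against LP. In muscle cow 426 had a correlation of 0.82, within the 0.47 to 0.86 of the others. Its liver correlations for ML against EL and ML against LP were 0.44 and 0.51. In those contrasts Fert- cow 996 was the lowest and the only cow below 0, at -0.15 for ML against EL (next lowest 0.23, highest 0.79) and -0.04 for ML against LP (next lowest 0.23, highest 0.63), and its liver at ML held the lowest IGF-I and the highest IGFBP1 level of that time-point. The result is shown in the plot of correlations by cow. What sets these libraries apart was not tested, no library was relabelled, and liver results are therefore given with and without cow 426, and those at ML also without cow 996.

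**Figure D1:**
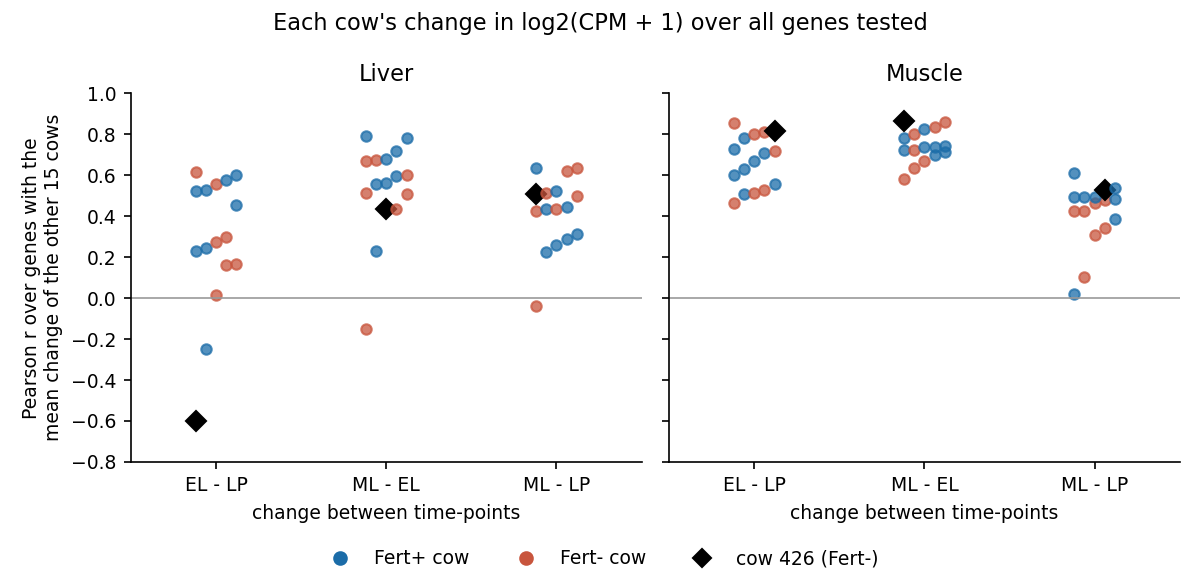
Pearson correlation over genes (y axis) between the change of 1 cow in log2(CPM + 1) and the mean change of the other 15 cows, for 3 pairs of time-points (x axis) in liver and muscle. Each point is a cow, and the diamond is cow 426, which sits at -0.60 for EL - LP in liver and at 0.82 in muscle.

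IGF-I, the growth factor through which much of growth hormone action is exerted, was lowest in liver at EL. At LP its level in liver lay between 1.62 and 32.5 CPM with a median of 15.8, at EL between 1.73 and 27.3 CPM with a median of 4.80, and at ML between 2.56 and 30.1 CPM with a median of 12.8. The 3 ranges overlapped almost entirely, while the medians of LP and ML were well above that of EL. From LP to EL the level was lower in 13 of 16 cows, and the exceptions were cow 426 (1.62 CPM at LP and 16.7 CPM at EL) and Fert+ cows 782 (6.04 and 7.26 CPM) and 3847 (21.4 and 27.3 CPM). The steepest falls were in Fert- cows 982 (16.4 to 1.73 CPM), 419 (17.8 to 2.22 CPM) and 996 (30.9 to 4.37 CPM) and in Fert+ cow 3397 (32.5 to 6.30 CPM).

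With the cow as a block, IGF-I fell in liver from LP to EL (log2 fold change -1.23 ± 0.32 SE, adjusted p = 0.0349, edgeR quasi-likelihood test with Benjamini-Hochberg adjustment). Of the 13406 genes tested in liver, 1.08% were higher and 1.42% lower at EL by the same rule. Without cow 426 the change was -1.47 ± 0.27 (adjusted p = 0.00117), beside 5.95% of genes higher and 5.02% lower. By an exact permutation test over sign flips of the change in log2(CPM + 1), two-sided, the mean change was -1.04 (p = 0.0132), and it was -1.30 in the 15 other cows (p = 0.00104). The adjusted p lay near the threshold. The call was lost when any 1 of cows 33, 164, 419, 430, 756, 782, 982, 1179, 3397 and 3445 was left out (log2 fold changes from -1.11 to -1.33, adjusted p from 0.0523 to 0.0917), and without the batch B libraries (-1.24, adjusted p = 0.204), where no gene at all was called between LP and EL. With batch as a term beside the cow it held (-1.23, adjusted p = 0.0390). The summed hepatocyte markers also had a lower median at EL, as given above, and their part in the change was not tested.

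From EL to ML, IGF-I rose in liver by 0.90 ± 0.31 on the log2 scale (adjusted p = 0.0184), and was higher in 12 of 16 cows. The share of all genes called in this contrast was large, 21.5% higher and 20.6% lower. The call was kept without any 1 cow (0.81 to 1.07) and missed the threshold without the batch B libraries (0.96, adjusted p = 0.0566). Cow 426 (16.7 to 10.02 CPM) was 1 of the 4 that went the other way, with Fert+ cow 3847 (27.3 to 25.0 CPM) and Fert- cows 829 (3.96 to 2.79 CPM) and 996 (4.37 to 2.56 CPM). Between LP and ML the difference was -0.33 ± 0.30 (adjusted p = 0.487), an interval of -0.94 to 0.27 at 2 SE, beside 9.07% of all genes higher and 6.42% lower at ML. Without cow 996 the changes of IGF-I were 0.93 from EL to ML (adjusted p = 0.0107) and -0.15 from LP to ML (adjusted p = 0.749), and leaving out each cow in turn gave -0.42 to -0.15 for the latter. By these tests the level at EL lay below those at LP and ML, with the call against LP kept in 6 of the 16 fits leaving out a cow. LP and ML were not told apart, and the interval above leaves room for a difference of either sign.

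**Figure D2:**
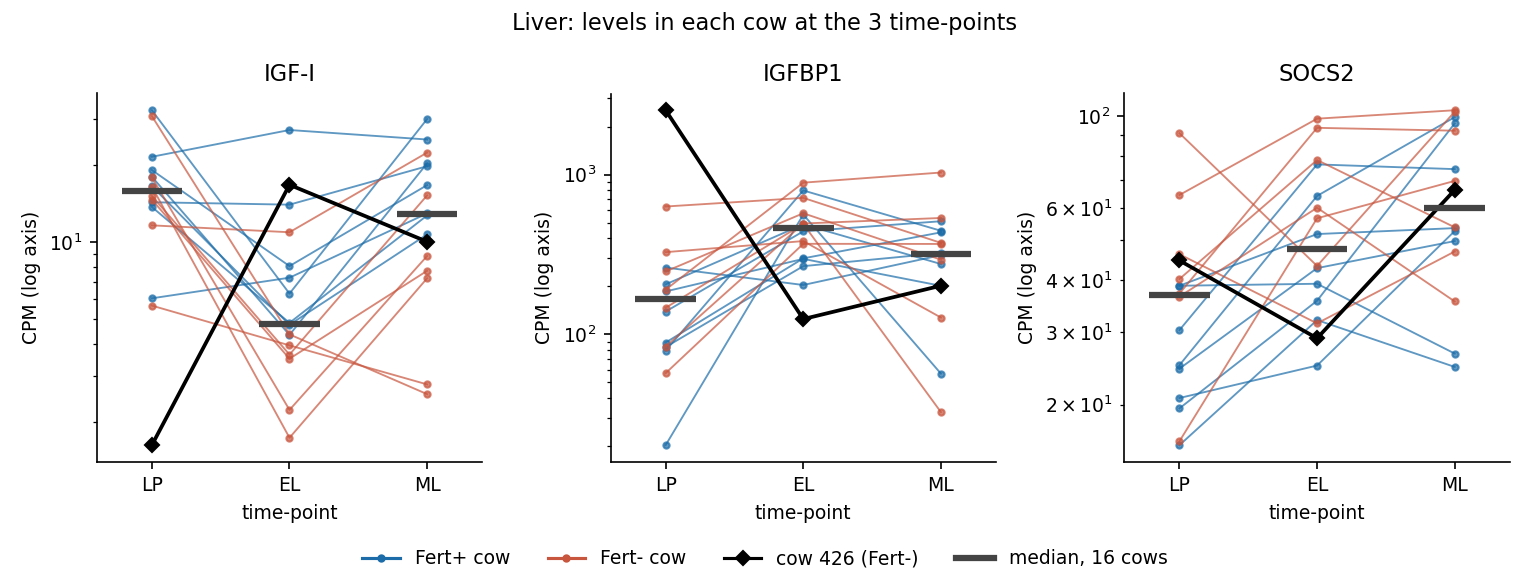
Level in liver (CPM, log axis) of IGF-I, IGFBP1 and SOCS2 at LP, EL and ML, with a line for each of the 16 cows and a bar at the median. Most IGF-I lines drop from LP to EL while most IGFBP1 lines climb, and cow 426, in black, runs the other way for both.

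IGFBP1 had its highest median in liver at EL. At LP it lay between 20.2 and 2528 CPM with a median of 166, at EL between 125 and 890 CPM with a median of 464, and at ML between 32.6 and 1030 CPM with a median of 318. The highest value at LP, 2528 CPM, was that of cow 426, which had 125 CPM at EL, the lowest of that time-point. The next highest value at LP was 631 CPM in Fert- cow 982. IGFBP1 was higher at EL than at LP in 14 of 16 cows, and the other exception was Fert+ cow 3847 (262 CPM at LP and 203 CPM at EL), one of the cows in which IGF-I was not lower at EL either.

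Over 16 cows the change from LP to EL was 1.28 ± 0.45 on the log2 scale and missed the threshold (adjusted p = 0.0999). Without cow 426, which was picked out by its change in this same contrast, IGFBP1 rose by 1.59 ± 0.36 (adjusted p = 0.00482). That was the only 1 of the 16 fits leaving out a cow that gave a call (highest adjusted p 0.184). The exact permutation test gave a mean change of 1.32 in log2(CPM + 1) with p = 0.0178 over 16 cows, and 1.70 with p = 0.000244 over 15. DESeq2's Wald test called the change with all cows (adjusted p = 0.0271), and without the batch B libraries it was 1.19 (adjusted p = 0.391). In ML against EL the difference was -0.59 ± 0.42 (adjusted p = 0.263), and the level was lower in 9 of 16 cows. The difference was -0.38 without cow 430 and -0.67 without cow 996, and leaving out any 1 cow gave no call (smallest adjusted p 0.172). Without cow 426 the exact permutation test gave a mean change of -0.73 in log2(CPM + 1) (p = 0.0399, not adjusted over the 18 tests). From LP to ML the difference was 0.69 ± 0.45 with all cows (adjusted p = 0.308) and 1.003 ± 0.36 without cow 426 (adjusted p = 0.0678). Without that cow the exact permutation test gave 0.97 from LP to ML (p = 0.0321, also not adjusted). Individual cows differed widely at ML, where Fert- cow 996 stayed at 1030 CPM while Fert- cow 1179 had 32.6 CPM and Fert+ cow 430 had 56.7 CPM.

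SOCS2, the feedback inhibitor, was lowest in liver at LP and highest at ML. Its level lay between 16 and 91.0 CPM at LP (median 36.9), between 24.9 and 98.6 CPM at EL (median 47.6) and between 24.7 and 103 CPM at ML (median 60.0). From LP to EL it was higher in 13 of 16 cows, among them all 8 Fert+ cows, and the exceptions were Fert- cows 164 (91.0 to 43.4 CPM), 419 (46.3 to 31.5 CPM) and 426 (44.7 to 29.0 CPM). That change was 0.56 ± 0.18 on the log2 scale (adjusted p = 0.0831). Without cow 426 it was 0.63 ± 0.19 and passed the test (adjusted p = 0.0263). That was the only call among the 16 fits leaving out a cow (highest adjusted p 0.160). DESeq2 called the change with all cows (adjusted p = 0.0382). Without the batch B libraries the change was 0.61 (adjusted p = 0.247), and with batch as a term 0.58 (adjusted p = 0.0767). The exact permutation test gave p = 0.0140 over 16 cows.

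Between LP and ML, SOCS2 rose in liver by 0.84 ± 0.19 (adjusted p = 0.00270) and was higher in 14 of 16 cows (exact permutation test, p = 0.000610). The call held without any 1 cow (0.73 to 0.93, and 0.88 without cow 996). The step from EL to ML was 0.28 ± 0.18 (adjusted p = 0.220, and 0.18 without cow 3434) and was not called. Without the batch B libraries the change from LP to ML was 0.93 (adjusted p = 0.00809). At EL, where the median of IGF-I was lowest, that of SOCS2 lay between its medians at LP and ML.

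**Figure D3:**
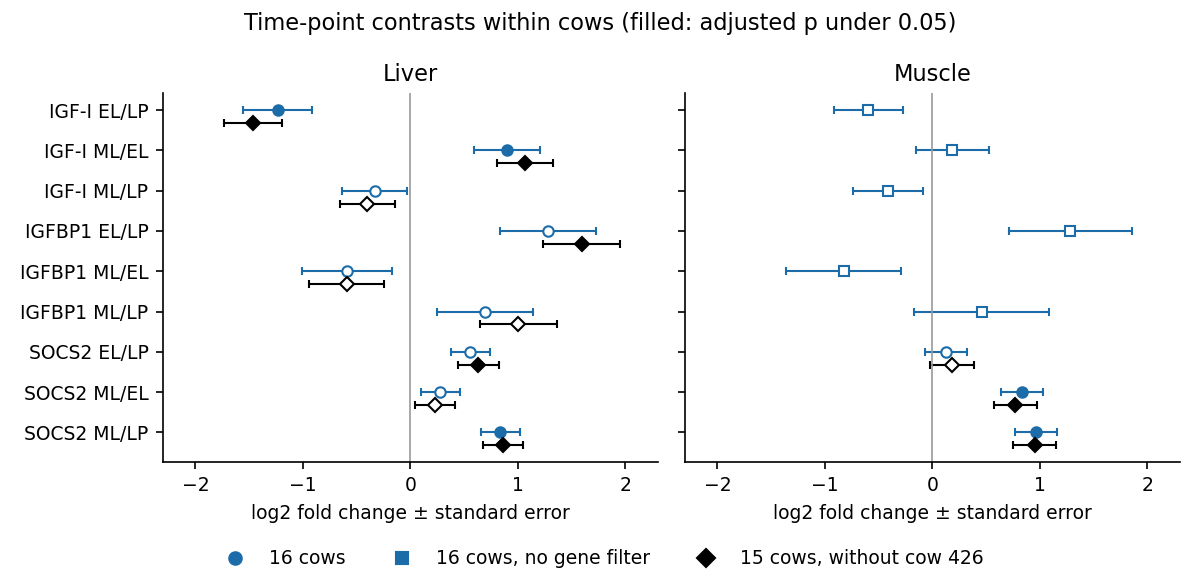
Log2 fold changes between time-points with the cow as a block (points, with bars of 1 SE), in liver and muscle, for 16 cows and for 15 cows without cow 426, with filled symbols for an adjusted p under 0.05. In liver IGF-I fell by 1.23 from LP to EL and rose by 0.90 to ML, and SOCS2 was 0.84 higher at ML than at LP in liver and 0.96 higher in muscle.

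In muscle, where IGF-I made locally is known to act on the fibres themselves, its gene was hardly counted. Muscle libraries had between 0 and 13 read pairs on IGF-I, or at most 0.63 CPM, and a limit of 3 read pairs stands for 0.136 to 0.196 CPM at this depth, a floor that covers counting error only. The median was 0.42 CPM at LP, 0.17 CPM at EL and 0.28 CPM at ML. The filter on low counts removed the gene in muscle, and in a fit without that filter the changes were -0.60 ± 0.32 from LP to EL (adjusted p = 0.150), 0.19 from EL to ML (adjusted p = 0.704) and -0.41 from LP to ML (adjusted p = 0.571). The level was lower at EL than at LP in 12 of 16 cows, with a mean change of -0.14 in log2(CPM + 1) (exact permutation test, p = 0.0328). Without cow 426 the exact permutation p was 0.0526, and with library totals in place of TMM factors the change was -0.06 (exact permutation p = 0.280). The 2 SE interval of the fitted change from LP to EL, -1.24 to 0.04, holds both 0 and a change of the size seen in liver.

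IGFBP1 was near the floor in muscle as well, with medians of 0.12, 0.20 and 0.12 CPM at LP, EL and ML and with 3, 3 and 1 of 16 libraries at 0. The highest values were 2.25 CPM at EL in cow 426 (52 read pairs), 1.35 CPM at EL in Fert- cow 419 and 1.15 CPM at ML in Fert- cow 996. Hepatocyte markers summed to 0.692 and 0.279 CPM in the first and second of these libraries and to 88.9 CPM in the third. Without the filter, the change from LP to EL was 1.28 ± 0.57 (adjusted p = 0.0762), and without the cow block it was 1.66 and passed (adjusted p = 0.0141). The exact permutation test over cows gave p = 0.0721, with higher values at EL in 9 of 16 cows, and p = 0.144 without cow 426.

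**Figure D4:**
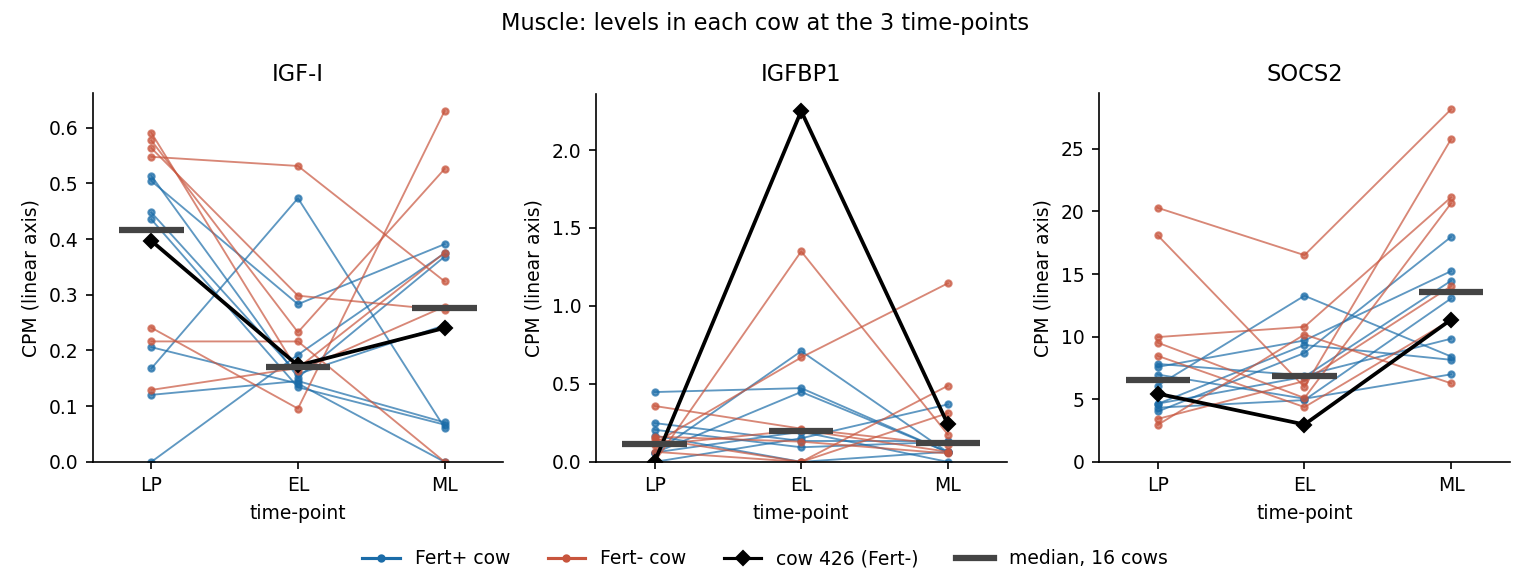
Level in muscle (CPM, linear axis) of IGF-I, IGFBP1 and SOCS2 at LP, EL and ML, with a line for each of the 16 cows and a bar at the median. IGF-I and IGFBP1 stay below 0.64 and 2.3 CPM, while every SOCS2 line ends higher at ML than at LP.

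SOCS2 was the only 1 of the 3 genes that passed the filter in muscle, and it rose there late. Its level lay between 2.96 and 20.3 CPM at LP (median 6.54), between 2.99 and 16.5 CPM at EL (median 6.84) and between 6.28 and 28.2 CPM at ML (median 13.5). The lowest value at ML was close to the median at LP, and the Fert- cows 982 (20.3, 16.5 and 28.2 CPM) and 164 (18.1, 5.97 and 25.8 CPM) had the highest levels at LP and ML. From LP to ML it rose by 0.96 ± 0.19 on the log2 scale (adjusted p = 0.00144) and was higher in 16 of 16 cows (exact permutation test, p = 3.05e-05, the smallest this test can give). Over all 12304 genes tested in muscle, 4.17% were higher and 4.93% lower at ML than at LP.

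The rise of SOCS2 in muscle lay between EL and ML (0.83 ± 0.19, adjusted p = 0.000379, higher in 13 of 16 cows, exact permutation p = 0.00168), with 0.13 (adjusted p = 0.594) from LP to EL, where leaving out each cow in turn gave 0.01 (without cow 1000) to 0.24 (without cow 164). Those contrasts moved most of the tissue. Of all genes tested in muscle 30.4% were higher and 27.9% lower at EL than at LP, and 31.7% were higher and 31.9% lower at ML than at EL. The split between the steps depended on scaling. With library totals in place of TMM factors, which shifted the median log2 fold change of all genes by 0.38 from LP to EL and by -0.41 from EL to ML, SOCS2 changed by 0.50 (adjusted p = 0.0271) and by 0.41 (adjusted p = 0.0562). Taking off these shifts would only restore a scaling like that of TMM, so that it cannot place the rise in either step. The change from LP to ML was 0.91 (adjusted p = 0.00241) with library totals.

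Whether a gene took another course in liver than in muscle was tested in a single fit over the 96 libraries. The difference between tissues (liver minus muscle) in the change from EL to ML was -0.62 ± 0.27 for SOCS2 and missed the threshold (adjusted p = 0.0628). For EL against LP it was 0.48 ± 0.28 for SOCS2 (adjusted p = 0.196) and -0.55 ± 0.57 for IGF-I (adjusted p = 0.507). The interval of the latter at 2 SE, -1.68 to 0.58, includes a difference as large as the fall in liver itself. Over all 14236 genes of this fit, 28.7% differed between tissues in EL against LP, 39.2% in ML against EL and 9.73% in ML against LP. None of the 3 genes was among them, and none was without cow 426 (smallest adjusted p 0.172).

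The study named IGF-I in liver at ML, IGFBP1 and SOCS2 in liver at LP and SOCS2 in muscle at LP and ML as differing between genotypes on these same samples, so that the values here are not independent evidence of those directions. For IGF-I the paper also reports higher plasma IGF1 in the Fert+ cows, and it points to earlier real-time PCR on some of these animals. In liver at ML, IGF-I lay between 10.7 and 30.1 CPM in the 8 Fert+ cows (median 18.2) and between 2.56 and 22.3 CPM in the 8 Fert- cows (median 8.27). Every Fert+ cow was above the Fert- median, and Fert- cows 1000 (22.3 CPM) and 1179 (15.2 CPM) lay within the range of the Fert+ cows. The difference was 0.96 ± 0.37 on the log2 scale, with an adjusted p of 0.330 over the 13235 genes tested. The exact permutation test of this gene alone gave a difference of 1.06 in log2(CPM + 1) (two-sided p = 0.0117, with 0.000155 the smallest that 8 against 8 cows allow). Without the batch B libraries the fitted difference was 0.80 (adjusted p = 0.439), and leaving out each cow in turn, cow 996 among them, gave 0.81 to 1.24. No gene was called between genotypes in liver by this test at LP, EL or ML (0.00%, 0.00% and 0.00% of genes called), although 842, 1530 and 1640 genes had an unadjusted p under 0.05. DESeq2 called 0, 6 and 77 genes.

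IGF-I showed the same order at the other time-points without passing either test. Fert+ minus Fert- was 0.32 ± 0.42 at LP (adjusted p = 0.935) and 0.70 ± 0.48 at EL (adjusted p = 0.542, interval -0.27 to 1.67), where the Fert- median was 3.80 CPM and the Fert+ median 6.78 CPM. Without cow 426 the difference at EL was 1.14 ± 0.45 (adjusted p = 0.410, exact permutation p = 0.0357), where that cow had the highest Fert- value. Without the batch B libraries, 2 from Fert+ cows and 1 from a Fert- cow at EL, it was 0.10 (adjusted p = 0.958).

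IGFBP1 in liver at LP had medians of 114 CPM in Fert+ (20.2 to 262 CPM) and 219 CPM in Fert- cows (57.1 to 2528 CPM). The difference of -1.99 ± 0.75 (adjusted p = 0.731) rested on cow 426, without which it was -0.86 ± 0.54 (adjusted p = 0.989), and the permutation tests, exact, gave p = 0.112 and p = 0.224. SOCS2 in liver at LP was lower in Fert+ cows, with medians of 24.7 CPM (16 to 38.8 CPM) against 42.5 CPM (16.3 to 91.0 CPM). All 8 Fert+ cows were below the Fert- median. The difference was -0.82 ± 0.27 (adjusted p = 0.731, exact permutation p = 0.0292), and at EL and ML it was -0.42 ± 0.28 and -0.26 ± 0.29. Leaving out each cow in turn gave -0.95 to -0.61 at LP, and without cow 426 the exact permutation p there was 0.0412. Without the batch B libraries these differences at LP were -1.90 for IGFBP1 and -0.97 for SOCS2.

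The median of SOCS2 in muscle at LP was 5.38 CPM for Fert+ and 8.99 CPM for Fert- cows, and at ML it was 11.4 and 17.3 CPM. The differences were -0.77 ± 0.34 at LP (adjusted p = 0.711, exact permutation p = 0.185) and -0.57 ± 0.29 at ML (adjusted p = 0.674, exact permutation p = 0.138). At EL the value was 0.04 (adjusted p = 0.976) and changed sign under other settings. Of the genes tested in muscle, 0.00% were called at LP, 0.00831% at EL, which is 1 gene, and 0.00% at ML, with 800, 1426 and 917 at an unadjusted p under 0.05 and with 27, 119 and 10 called by DESeq2. With edgeR's exact test and a single common dispersion for all genes, the setting nearest to the one the study names, all 5 of these differences passed. The adjusted p was 0.000281 for IGF-I in liver at ML, 2.99e-20 for IGFBP1 and 0.00237 for SOCS2 in liver at LP, and 0.00128 and 0.0128 for SOCS2 in muscle at LP and ML. That setting gives the 3 genes the spread of an average gene, and it called between 214 and 438 genes per comparison.

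None of the 3 genes had a time course that differed between genotypes by test. In the 2 degree of freedom test of genotype by time-point, 0.00% of genes were called in liver and 0.00% in muscle, with 1067 of 13815 and 1158 of 12675 genes at an unadjusted p under 0.05. The change of IGF-I in liver from LP to EL was 0.48 ± 0.64 higher in Fert+ cows (adjusted p = 0.772), an interval of -0.80 to 1.76, and 0.99 ± 0.51 higher without cow 426 (adjusted p = 0.488). For SOCS2 in muscle the change from LP to EL was 0.69 ± 0.38 higher in Fert+ cows (adjusted p = 0.507). No alternative fit called either gene here.

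The rest of the axis was described from a list of 41 genes, of which 11 could be matched to an identifier by name, the 3 genes above and 8 others. Gene names were known for genes in the study's own lists of differences between genotypes, made on these samples, and for part of its tables of levels, so that the matched genes are a selection and their counts are not independent evidence of any direction. None of the receptors (5 genes, among them that of growth hormone) and none of the liver transcription factors could be matched, and these are not analysed here. In liver none of the 8 passed the test between LP and EL (median log2 fold change -0.07, and 0.01 over all genes). From EL to ML 2 rose, the binding proteins IGFBP2 (0.52 ± 0.21, adjusted p = 0.0412) and IGFBP7 (0.61 ± 0.15, adjusted p = 0.00201), and 1 fell, SOCS3 (-1.41 ± 0.44, adjusted p = 0.0104), beside 21.5% of all genes higher and 20.6% lower. With no gene filter 1 rose and 1 fell, beside 2816 of 19976 genes higher and 2756 lower, and IGFBP2 was not called. The other 5 did not pass, among them the ligand IGF2 (-0.07, adjusted p = 0.653), which is abundant in liver at medians from 1963 to 2196 CPM.

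SOCS3, which cytokines such as interleukin 6 induce, had a median of 3.65 CPM at LP, 7.80 CPM at EL and 3.27 CPM at ML in liver, and its highest value, 85.2 CPM, was at EL. Its change from LP to EL was 1.27 ± 0.44 (adjusted p = 0.0960). Without cow 426 SOCS3 rose from LP to EL (1.49, adjusted p = 0.0273). IGFBP7 (-0.44, adjusted p = 0.0323) and PIK3R1 (-0.46, adjusted p = 0.0281), a regulatory subunit of phosphoinositide 3-kinase, fell in that contrast. These calls stood beside 5.95% of all genes higher and 5.02% lower. Without that cow IGFBP4 also fell from EL to ML (-0.27, adjusted p = 0.0385) and PIK3R1 from LP to ML (-0.44, adjusted p = 0.0378). CISH, the relative of SOCS2 that STAT5 also induces, did not pass in any contrast in liver (medians of 9.65, 9.45 and 10.5 CPM at LP, EL and ML). From LP to ML 1 of the 8 rose in liver, IGFBP2 (0.59, adjusted p = 0.0481), and 1 fell, FOXO1 (-0.33 ± 0.08, adjusted p = 0.00852), a transcription factor that insulin restrains, beside 9.07% and 6.42% of all genes. The rise of IGFBP2 was not called with no gene filter, nor the fall of FOXO1 with library totals (-0.25, adjusted p = 0.108).

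In muscle 7 of the 8 passed the filter and 6 of them moved between LP and EL, a contrast in which 30.4% of all genes were higher and 27.9% lower. CISH (1.58 ± 0.37, adjusted p = 0.000575), FOXO1 (1.14 ± 0.34, adjusted p = 0.00495) and PIK3R1 (0.87 ± 0.19, adjusted p = 0.000257) rose, and IGF2 (-0.53 ± 0.08), IGFBP4 (-0.35 ± 0.14, adjusted p = 0.0279) and IGFBP7 (-0.80 ± 0.08) fell. With 3 genes up and 3 down, the median over the 7 was the value of SOCS3, the gene not called (0.74, and 0.01 over all genes). With no gene filter the median over the 8 was 0.44 (-0.01 over all genes), again with 3 up and 3 down. All 6 went back from EL to ML, where 31.7% of all genes were higher and 31.9% lower, CISH by -0.94, FOXO1 by -2.3 and PIK3R1 by -0.65, IGF2 by 0.56, IGFBP4 by 0.69 and IGFBP7 by 0.42. Both contrasts rest on the same EL libraries, so that the return is not separate evidence of the first change. From LP to ML 2 of the 7 fell, FOXO1 (-1.16 ± 0.36) and IGFBP7 (-0.38 ± 0.08), and none rose, beside 4.93% of all genes lower and 4.17% higher. CISH had medians of 43.7, 107 and 66.3 CPM at LP, EL and ML, and FOXO1 of 26.8, 66.1 and 14.9 CPM. Without cow 426 the fall of FOXO1 from LP to ML was not called (-1.07, adjusted p = 0.0834). The skeletal muscle markers were at their lowest median at EL, and their part in these changes was not tested. With library totals, IGFBP4 from LP to EL was 0.03 in place of a fall, and the rises of IGF2 (0.15), IGFBP4 (0.26) and IGFBP7 (0.00) from EL to ML were not called.

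**Figure D5:**
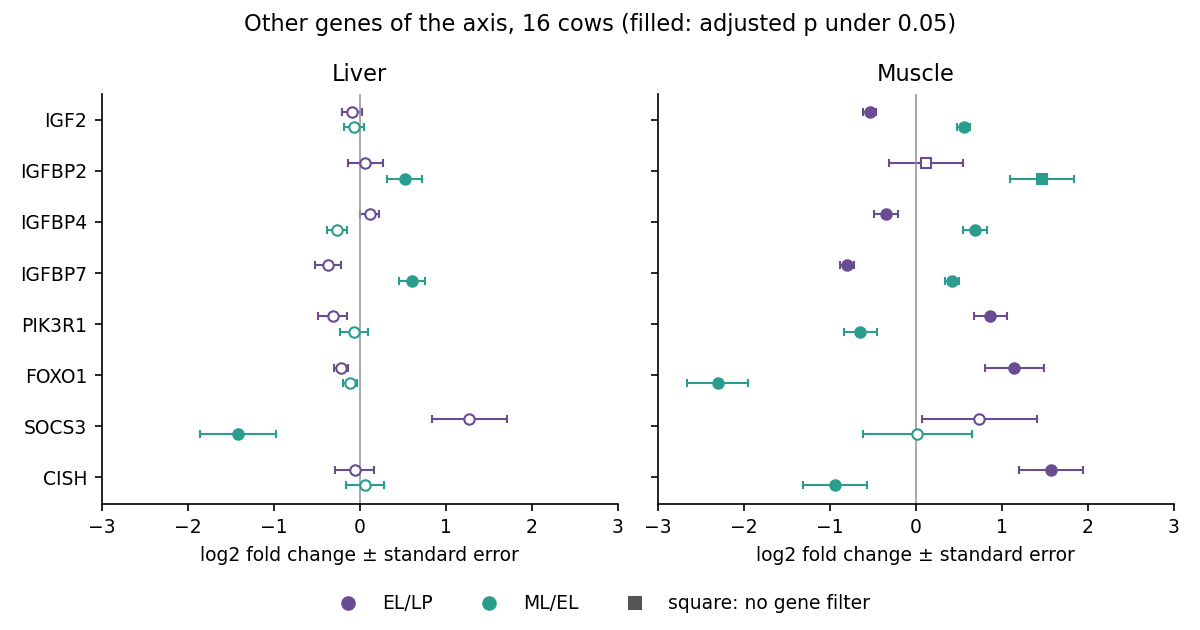
Log2 fold changes (points, with bars of 1 SE) of 8 other genes of the axis from LP to EL and from EL to ML in 16 cows, in liver and muscle, with filled symbols for an adjusted p under 0.05 and squares for a gene fitted without the filter on low counts. In muscle CISH, FOXO1 and PIK3R1 rose at EL and fell by ML, while in liver SOCS3 fell by 1.41 from EL to ML.

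IGFBP1 is restrained by insulin, and 8 of 10 listed genes that insulin restrains or fasting induces could be matched beside it, under the same selection. In liver none of the 8 passed between LP and EL (median log2 fold change -0.03), where 1.08% of all genes were higher and 1.42% lower. Without cow 426 1 of the 8 was called lower and none higher (median 0.07, and 0.01 over all genes). In that fit 5.95% of all genes were higher and 5.02% lower. From EL to ML 2 rose, among them TXNIP (0.40 ± 0.16, adjusted p = 0.0364), and 1 fell, ANGPTL4 (-2.22 ± 0.31, adjusted p = 5.29e-06), an inhibitor of lipoprotein lipase, beside 21.5% of all genes higher and 20.6% lower. With no gene filter none of the 8 rose and 1 fell, beside 2816 of 19976 genes higher and 2756 lower. Without cow 426 TXNIP missed the threshold (0.39, adjusted p = 0.0536). From LP to ML TXNIP rose (0.52) and ANGPTL4 fell (-1.87), beside 9.07% of all genes higher and 6.42% lower. PCK1 and G6PC, enzymes of gluconeogenesis, did not pass in any contrast in liver (medians of 3555, 3292 and 2965 CPM for PCK1), at the time-points at which IGFBP1 had medians of 166, 464 and 318 CPM.

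In muscle 5 of the 8 passed the filter. PDK4, which restrains glucose oxidation, was the only 1 called from LP to EL and rose (1.65 ± 0.25, adjusted p = 1.65e-06). In that contrast 30.4% of all genes were higher and 27.9% lower. From EL to ML PDK4 fell (-2.61 ± 0.26, adjusted p = 3.62e-10) and PCK1 rose (0.80, adjusted p = 0.0352, and 0.74 with adjusted p = 0.0528 without cow 426). Those calls stood beside 31.7% of all genes higher and 31.9% lower. With library totals PCK1 was not called from EL to ML (0.37, adjusted p = 0.335) and was called higher from LP to EL (1.04, adjusted p = 0.0196). Under that scaling 7420 of 12304 genes were called higher from LP to EL. From LP to ML PCK1 rose (1.46) and PDK4 fell (-0.96), beside 4.17% of all genes higher and 4.93% lower. The liver genes IGFBP2, TAT and G6PC had medians of at most 0.37 CPM in muscle. Without the filter they were called higher at ML than at EL (1.47, 2.25 and 1.64), beside 4198 of 19523 genes higher and 4094 lower. Hepatocyte markers in muscle summed to a median of 0.66 CPM at EL and 8.84 CPM at ML, with 162, 151 and 88.9 CPM in cows 33, 1179 and 996 at ML, and their part in these 3 changes was not tested. No gene of either list was called between genotypes or in the test of genotype by time-point (smallest adjusted p 0.335 among those past the filter, with 16 cows).

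Whether cows high in one of the 3 genes were high or low in another was examined in 33 correlations of log2(CPM + 1). In liver at EL, IGF-I and IGFBP1 were inversely related over the 16 cows (Pearson r = -0.68, permutation p = 0.00411, adjusted p = 0.0435 and Spearman rho = -0.57, permutation p = 0.0232, adjusted p = 0.132). Without the 2 cows farthest from the median of IGF-I r was -0.40, so that the relation rested in part on them, and without cow 426 it was -0.60 (adjusted p = 0.108). It was -0.57 within Fert+ and -0.75 within Fert- cows, and -0.79 in the 10 cows without a batch B liver library. The changes from EL to ML in IGF-I and IGFBP1 had r = -0.60 (permutation p = 0.0125, adjusted p = 0.0689) and rho = -0.71 (permutation p = 0.00276, adjusted p = 0.0599). At LP and ML r was -0.29 and -0.34, and without cow 426 it was 0.41 at LP.

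IGFBP1 and SOCS2 were related in liver at EL (r = 0.67, permutation p = 0.00445, adjusted p = 0.0435, rho = 0.65, permutation p = 0.00789, adjusted p = 0.0868), with r = 0.50 without the 2 cows farthest out and 0.65 in the cows without batch B. SOCS2 in liver and in muscle of the same cow were related at EL (r = 0.71, permutation p = 0.00191, adjusted p = 0.0435, rho = 0.69, permutation p = 0.00363, adjusted p = 0.0599). That r was 0.58 without the 2 farthest cows, 0.78 within Fert+ and 0.81 within Fert- cows, and 0.85 in the 9 cows with no batch B library. At LP it was 0.61 over 16 cows but -0.64 within Fert+ and 0.83 within Fert- cows. SOCS2 in muscle at LP and ML had r = 0.66 over 16 cows (permutation p = 0.00527, adjusted p = 0.0435, rho = 0.55, permutation p = 0.0279, adjusted p = 0.132), with -0.40 within Fert+ and 0.87 within Fert- cows and 0.35 without the 2 farthest cows and 0.60 without batch B. Without cow 426 none of the 33 had an adjusted p under 0.05, and the smallest was 0.103. With log2(CPM + 0.1) the 4 relations past the threshold had an adjusted p of 0.0540.

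As a description, the genes whose log2 level followed each of the 3 most closely over the 48 libraries of a tissue were taken from those with a known name (1810 in liver), which are the same selection. The libraries of a cow and of a time-point share their source, so that no test was made. For IGF-I in liver these were CERS6 (Pearson r = 0.74), PIK3R1 (0.71), CGN1 (0.70), TTR (0.66), which is also a hepatocyte marker, and RNF125 (0.65). IGFBP1 in liver was followed by FOSL2 (0.64), DYRK3 (0.57), GADD45G (0.50) and MYC (0.49). With SOCS2 in liver went the transporters SLC29A1 (0.63) and SLC17A1 (0.63), then GABARAPL1 (0.56), YPEL3 (0.55) and OR1E2 (0.54), and with SOCS2 in muscle went AKR1C1 (0.57), IGFBP4 (0.56), ALDH9A1 (0.54), EPHX1 (0.50) and GIPC2 (0.50). For IGF-I in muscle, which was near the floor, no gene exceeded 0.45.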

How the data were processed

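For each of the 96 libraries the authors deposited raw counts of read pairs per Ensembl70 gene, made with featureCounts after trimming (Trimmomatic), STAR alignment to UMD3.1 and a Samtools filter for proper pairs. CASAVA 1.8 is named in the submitters' processing notes for base calling. Another 96 columns of counts without sample names were not used. The library kit does not mark strand, so reads of a gene and an overlapping antisense gene cannot be told apart. Tissue, time-point, genotype and cow came from the labels. Among 720 library pairs within a tissue and time-point none was identical, and the smallest chi-square per gene was 14.1.

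Counts were tested with edgeR 4.0.16 (quasi-likelihood, robust, TMM, filterByExpr, two-sided, Benjamini-Hochberg over all genes tested, threshold 0.05) under R 4.3.3 with limma 3.58.1. DESeq2 1.42.0 was an alternative. Standard errors were derived from this fit, and intervals are 2 SE on either side. Permutation tests, exact, and correlations (100000 permutations) used log2(CPM + 1) in Python 3.11.15 with numpy 2.4.6, pandas 2.3.3 and scipy 1.17.1, in 18 tests between time-points and 18 between genotypes. Time-points were compared with the cow as a block, since the same animals were sampled. Libraries of the same cow correlated above 0.1 after group means were removed in 39 of 48 pairs in liver (median 0.26) and 42 of 48 in muscle (median 0.25). Genotypes were compared within a time-point.

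Alternatives were no block, RLE factors, library totals, no gene filter, no robust estimation, DESeq2, 2 time-points only, without batch B, batch as a term, the exact test with a common dispersion, 48 libraries in a fit and each cow left out. Leaving cow 426 out of interactions, permutation tests and correlations, and the fits of IGF-I and IGFBP1 in muscle without filter that also changed the block, factors or batch, were chosen after seeing the data. Scripts were tested on simulated counts. The genes and lists were chosen with earlier results of these data known. Named genes are the 3 members, every matched gene of the axis and of the fasting list that passed a test, and the 5 most alike by correlation, except that results of some of these genes are not reported here. Names were known for 2161 identifiers, from the study's tables of genes differing between genotypes and of levels, the latter held here in part (names only). No sequences or genome positions are given, since none of this build were used here. Marker lists were also taken for adipocytes (at most 5.70 CPM in liver and 73.2 CPM in muscle), erythroid cells (20.8 and 5.93), macrophages (1354 and 35.1), endothelium (51.5 and 200) and fibroblasts (316 and 410).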

Additional observations from a re-analysis of the deposited data

Results flagged for a closer look

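Over 36 groups of 8 cows (3 genes, 2 tissues, 3 time-points and 2 genotypes) the gap of the highest or lowest cow was compared on the log2 scale with Dixon's critical value of 0.526, and 5 groups held a cow past it, where chance gives about 1 in 20 groups. IGFBP1 in liver was lowest by such a gap in Fert+ cow 430 at LP (20.2 CPM) and at ML (56.7 CPM), and in Fert- cow 426 at EL (125 CPM). In muscle, at levels of a few read pairs, IGF-I was highest by such a gap in Fert+ cow 756 at EL (0.473 CPM) and IGFBP1 in Fert+ cow 33 at ML (0.369 CPM). The muscle library of cow 33 at ML also had the highest hepatocyte sum, 162 CPM, whose part in that value was not tested.

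Some of the 8 other matched genes of the axis took a different course in liver than in muscle. The difference itself was tested (edgeR quasi-likelihood test over 96 libraries, liver minus muscle, log2 scale). For EL against LP the genes that differed were CISH (-1.58), FOXO1 (-1.31), PIK3R1 (-1.14), IGF2 (0.50), IGFBP4 (0.52) and IGFBP7 (0.48). For ML against EL they were FOXO1 (2.13), IGF2 (-0.69), IGFBP2 (-1.11) and IGFBP4 (-1.02), where IGFBP2 was near the floor in muscle. For ML against LP it was IGFBP7 (0.61). Over all 14236 genes, 28.7% differed in EL against LP, 39.2% in ML against EL and 9.73% in ML against LP. The split of these calls by direction over all genes changed when cow 426 was left out, and also with the scaling. For EL against LP 2300 were higher and 1784 lower, and 1691 and 2412 without that cow. For ML against EL the calls were 2272 and 3309, and 3018 and 2283 without it.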

How the results depend on the processing

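Of the values on which the comparisons of IGF-I, IGFBP1 and SOCS2 rest, 648 under an alternative kept their direction and their side of the threshold, 16 lost a call, 11 gained one and 12 changed sign. The cause of these changes was not tested. IGF-I in liver from LP to EL lost its call with no replicate block (-1.04, adjusted p = 0.0702), with no gene filter (-1.23, adjusted p = 0.0612), with 2 time-points only (-1.25, adjusted p = 0.149) and without batch B (-1.24, adjusted p = 0.204), and from EL to ML without batch B (0.96). DESeq2 called IGFBP1 (1.28) and SOCS2 (0.56) in liver from LP to EL. Without the cow block IGFBP1 in muscle from LP to EL passed (1.66) and the difference between tissues in its change from LP to ML turned to -0.62. Apart from these and the lost call of IGF-I in liver from LP to EL, the block or pairing changed no call of the 3 genes. With library totals SOCS2 in muscle passed from LP to EL (0.50) and not from EL to ML (0.41). The exact test with a common dispersion called IGF-I in liver at ML (0.95), IGFBP1 in liver at LP (-1.99) and SOCS2 at LP in liver (-0.82) and muscle (-0.77) and at ML in muscle (-0.57). No paired analysis was possible because each cow has 1 genotype, in the comparisons of genotypes.

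Leaving out each cow in turn gave ranges of -1.47 to -1.08 for IGF-I, 1.04 to 1.59 for IGFBP1 and 0.49 to 0.66 for SOCS2 in liver from LP to EL, of -0.38 to 0.22 for the genotype difference of IGFBP1 in liver at ML (0.22 without cow 996) and of -0.085 to 0.31 for that of SOCS2 in muscle at EL (below 0 without cows 33 (-0.085), 419 (-0.03), 426 (-0.08) or 829 (-0.01)). Differences near 0 changed sign elsewhere too: IGFBP1 between genotypes in liver at ML without batch B (0.075), and SOCS2 between genotypes in muscle at EL with library totals (-0.18) and without batch B (-0.10). By permutation that SOCS2 difference was -0.043 with library totals and -0.0033 without cow 426, and the IGF-I change in muscle from EL to ML was -0.041 with library totals. Without cow 426 the differences between tissues were 0.60 (EL against LP) and -0.045 (ML against EL) for IGFBP1 and -0.0071 (ML against LP) for IGF-I, and r of SOCS2 in muscle between LP and ML was -0.40 within Fert+ cows.

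The count of genes called in liver from LP to EL, 336, was 193 with no filter, 889 by DESeq2, 0 without batch B (1601 at an unadjusted p under 0.05) and 0 with 2 time-points, and 8 to 1468 without 1 cow (8 without cow 782, 10 without each of cows 756, 3397 and 3445, 1468 without cow 426). In liver from LP to ML it was 2077, 3112 with 2 time-points and 1344 to 2356 without 1 cow (1344 without cow 426), and in muscle 1119, 713 without the block and 1953 with 2 time-points. The exact test gave 306 (LP), 301 (EL) and 279 (ML) calls between genotypes in liver and 214, 438 and 214 in muscle, DESeq2 gave 6 (EL) and 77 (ML) in liver and 27, 119 and 10 in muscle, and 48 libraries in a single fit called 362 in liver and 566 in muscle at EL. Library totals called 1 gene in liver at ML and 3 in muscle at EL, where 0 were called without batch B. In muscle 2 genes were called for genotype in the change from LP to EL, 1 with no block, 1 with no filter and 0 without cow 426. With library totals the calls split into 205 higher and 88 lower in liver from LP to EL (145 and 191 with TMM), 2934 and 1752 from EL to ML (2885 and 2756), and 1352 and 363 from LP to ML (1216 and 861), and in muscle into 7420 and 1083 (3745 and 3431), 1215 and 7675 (3906 and 3927) and 238 and 820 (513 and 606). Library totals also shifted the median of all genes by 0.17 in liver and -0.21 in muscle between genotypes at EL. In muscle, IGF-I and IGFBP1 had at most 13 and 52 read pairs in a library, which limits the precision of a level in a single library.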
